A study of Mus musculus with 36 samples.

Results

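The genes of fatty acid oxidation and ketogenesis were followed in mouse liver with and without the hepatocyte insulin receptor. The set was a list of 39 gene names: regulators, enzymes of fatty acid uptake and activation, the carnitine shuttle, mitochondrial and peroxisomal beta-oxidation, ketone body enzymes, and the target genes Pdk4 and Vnn1. Members were found by the gene name printed on the array, and a probe was kept where at least 6 of the 36 arrays read it well above background. All 39 listed members passed, among 22916 genes tested, and each was represented by its brightest kept probe. The rule itself uses no difference between groups, though the list was chosen with earlier results of these data known.

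Fatty acid oxidation shortens acyl chains to acetyl-CoA. Long chains are activated to acyl-CoA, cross the inner mitochondrial membrane as carnitine esters and pass through repeated rounds of dehydrogenation, hydration, a further dehydrogenation and thiolysis, while peroxisomes start on very long chains and pass shortened chains on as carnitine esters. In liver much of the acetyl-CoA goes into ketone bodies, which other organs burn during fasting. The nuclear receptor PPARalpha drives many of these genes, and insulin in the fed state is known to restrain the pathway and ketone body output.

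Livers came from 36 male C57BL/6J mice, 11 weeks old, fed standard chow freely and kept on a light cycle with lights on at Zeitgeber time (ZT) 0 and off at ZT12. The knockout, written IRLKO in the labels, combined an insulin receptor gene (Insr) flanked by LoxP sites around the fourth exon (IRlox/lox) with TTR-CreTam, a tamoxifen-inducible Cre under the transthyretin promoter, which is active in liver. The control group is labelled IRLWT, and the labels state neither whether it carries Cre nor when tamoxifen was given. Each genotype was sampled at ZT8, ZT12 and ZT16 with 6 arrays per group. The labels number the replicates without further detail, so the p-values measure the spread between these samples.

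The 75th percentile of intensity ranged from 311 to 525 over the 36 arrays, 53.7% to 63.1% of probes read well above background, and no spot was saturated. The targeted gene was low in every knockout. On a log2 scale relative to each array's 75th percentile, Insr read -1.81, -1.40 and -1.01 (lowest, median and highest of 6) in ZT8 controls and -3.54, -3.05 and -2.94 in ZT8 knockouts, and every knockout lay below every control at all 3 times. The log2 ratios of knockout over control for Insr were -1.77 ± 0.13 (ZT8), -1.88 ± 0.13 (ZT12) and -1.65 ± 0.13 (ZT16), with adjusted p of 1.17e-11, 2.15e-12 and 2.89e-11. Alb, Ttr, Apoa1, Cps1 and Tat, which mark hepatocytes, all passed the filter, and their summed level was lower in knockouts at each time (2012 to 2356 in controls against 1386 to 1882 in knockouts at ZT8, 2231 to 2479 against 1636 to 2107 at ZT12, and 2297 to 2621 against 1767 to 1953 at ZT16, in multiples of the 75th percentile). That of 5 macrophage markers ranged from 25.4 to 73.5 against 38.6 to 212 at ZT8, from 21.9 to 74.3 against 52.1 to 149 at ZT12 and from 28.3 to 115 against 60.3 to 238 at ZT16. Sums of 5 endothelial markers (23.4 to 29.4 against 29.5 to 42.3) and 5 stellate cell markers (36.2 to 64.4 against 68.6 to 78.0) were higher in knockouts at ZT12, and the sums of 5 bile duct markers (2.00 to 13.1), 3 lymphocyte markers (8.04 to 13.4) and 4 fat markers (0.31 to 0.83) stayed low in every array. The sum of 3 red cell markers was 155 to 328 in controls and 285 to 659 in knockouts at ZT12, and 210 to 338 against 361 to 617 at ZT16. The part of these shifts in the results was not tested, and in whole liver fewer cells of a type cannot be told apart from less RNA per cell.

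ZT8 knockout replicate 3 stood apart. It scored -68.7 on the third principal component of all genes, where the other 35 arrays lay between -33.9 and 42.4 and the other 5 ZT8 knockouts between -4.33 and 21.7, while its intensity percentile and share of probes above background were inside the range of the others. On the second component it scored 3.03, where the other 5 ZT8 knockouts lay between 29.1 and 46.0. That score lay among those of the ZT12 arrays, -14.3 to 6.99. On the first component it scored -68.3, below the other 5 ZT8 knockouts at -46.7 to -25.8. Replicate 3 was the lowest of the 6 ZT8 knockouts in 33 of the 39 members and in 35.6% of all genes. ZT8 knockout replicate 2 was the highest of the 6 in 31 members. ZT8 results are therefore given with all arrays and, where a call rests on it, without replicate 3, and the plot of ZT8 ratios with and without that array shows both values for every member.

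In knockout livers the called members were mostly lower from ZT12 on, while a smaller group was higher, chiefly at ZT8. Ppara, Creb3l3, Pex11a, Slc25a20, Decr1 and Hsd17b4 were among those that fell, and Pdk4, Vnn1, Cpt1a, Acadl, Hadhb, Acsl4 and Crat among those that rose. A gene was called when its limma p-value, adjusted by Benjamini-Hochberg over all 22916 genes, was under 0.05. At ZT8, 9 members were higher and 12 lower in knockouts (53.8% of the 39), against 35.5% of all genes, of which 16.7% were higher and 18.7% lower. At ZT12, 4 were higher and 19 lower (59.0%), against 42.3% of all genes, 19.6% higher and 22.7% lower. At ZT16, 4 were higher and 20 lower (61.5%), against 40.0% of all genes, 20.0% higher and 20.1% lower. The share of members lower was thus 30.8%, 48.7% and 51.3% in time order, and the share higher 23.1%, 10.3% and 10.3%. The median log2 ratio over the members was -0.11, -0.28 and -0.24, beside 0.01, -0.02 and 0.00 over all genes. Knockout and control arrays did not overlap in 8 members at ZT8, 18 at ZT12 and 18 at ZT16, against 15.5%, 21.4% and 19.2% of all genes. Without replicate 3, the ZT8 counts turned to 12 higher and 6 lower, against 18.3% and 17.8% of all genes. Without ZT8 knockout replicate 2 instead, they moved the other way, to 7 higher and 17 lower. In that fit 7770 of all 22916 genes were called at ZT8, 3586 of them higher. The ZT16 count of 4 higher members ranged from 1 to 6 over the arrays left out in turn, with 1 without ZT16 control replicate 6 or ZT16 knockout replicate 6 and 2 without ZT16 knockout replicate 3 or 5. Of all genes 8835 were called at ZT16 without ZT16 control replicate 6 (4392 higher), and 8732 without ZT16 knockout replicate 6 (4330 higher). Of the 68 calls of members over the 3 times, 67 kept their sign within each of the 3 wash batches.

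**Figure D1:**
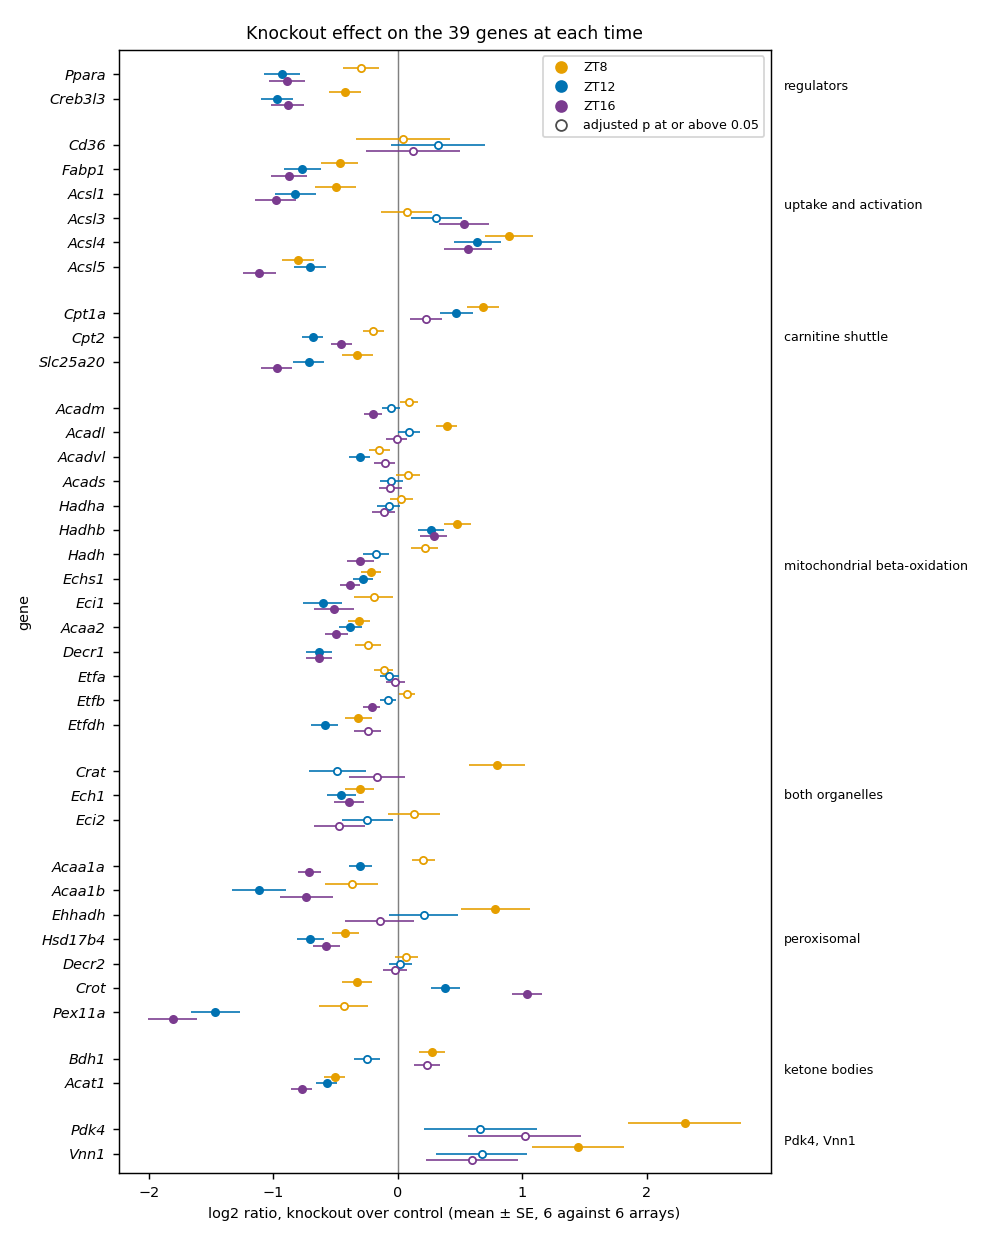
Log2 ratio of knockout over control (x axis, mean with standard error, 6 arrays against 6) for each of the 39 genes (y axis, grouped by role) at ZT8, ZT12 and ZT16. Filled points passed an adjusted p of 0.05 and open points did not; most filled points lie left of zero at ZT12 and ZT16, with Pex11a farthest left at -1.81, and Pdk4 lies farthest right at 2.30 at ZT8.

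The members fell into a few patterns over the 3 times. At every time 10 genes were lower: Creb3l3, Fabp1, Acsl1, Acsl5, Slc25a20, Echs1, Acaa2, Ech1, Hsd17b4 and Acat1. A further 7 passed as lower at ZT12 and ZT16 but not at ZT8 (Ppara, Cpt2, Eci1, Decr1, Acaa1a, Acaa1b and Pex11a), and 3 at ZT16 alone (Acadm, Hadh and Etfb). Acsl4 and Hadhb were higher at every time, and 6 genes passed as higher at ZT8 alone (Acadl, Crat, Ehhadh, Bdh1, Pdk4 and Vnn1). Cpt1a was higher at ZT8 and ZT12, Acsl3 at ZT16, Etfdh lower at ZT8 and ZT12, Acadvl lower at ZT12, and Crot lower at ZT8 and higher afterwards. On the brightest probe another 6 members passed at no time: Cd36, Acads, Hadha, Etfa, Eci2 and Decr2. Other kept probes of Acsl1, Acsl5, Echs1, Hadhb, Etfa, Etfdh, Crat, Eci2, Crot and Bdh1 gave other calls at some times, which are given with each gene. Without ZT8 knockout replicate 3, Acsl1, Slc25a20, Echs1 and Ech1 were no longer called lower at ZT8. Etfdh, Crot and Ehhadh also lost their ZT8 calls in that fit. With the ZT8 knockouts and controls fitted alone, 2 members were lower at ZT8, where 6288 of 22916 genes were called, 2900 of them higher. Passing at 1 time and not at another was tested separately, by the genotype-by-time test given with the time courses.

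Both transcriptional regulators in the set were lower in knockouts. Ppara encodes PPARalpha, the receptor that senses fatty acids, and its probe lies at chr15:85632110-85632169 (mm9). Creb3l3 encodes CREBH, a membrane-bound factor released by proteolysis that acts with PPARalpha on fasting genes, and its probe lies at chr10:80547080-80547139. Levels are given from here on as the lowest, median and highest of the 6 arrays of a group, on the same log2 scale, and errors of ratios are standard errors. At ZT8, Ppara read 6.00, 6.14 and 6.43 in controls and 5.04, 5.92 and 6.49 in knockouts. Ppara read 5.80, 6.13 and 6.33 in controls and 4.92, 5.20 and 5.49 in knockouts at ZT12, and 5.72, 5.78 and 5.89 in controls and 4.74, 4.92 and 5.11 in knockouts at ZT16. For Ppara, the groups overlapped at ZT8, and every knockout lay below every control at ZT12 and ZT16. Ppara had log2 ratios of -0.30 ± 0.15 (ZT8), -0.93 ± 0.15 (ZT12) and -0.89 ± 0.15 (ZT16), with adjusted p of 0.113, 6.07e-06 and 1.34e-05. Its ZT8 ratio was -0.10 (adjusted p = 0.496) without knockout replicate 3 and passed the threshold, at -0.42, without knockout replicate 2. At ZT8, Creb3l3 read 6.22, 6.31 and 6.58 in controls and 5.03, 6.02 and 6.28 in knockouts. Creb3l3 read 6.27, 6.28 and 6.36 in controls and 4.94, 5.37 and 5.59 in knockouts at ZT12, and 6.20, 6.29 and 6.41 in controls and 5.32, 5.36 and 5.56 in knockouts at ZT16. For Creb3l3, the groups overlapped at ZT8, and every knockout lay below every control at ZT12 and ZT16. Creb3l3 had log2 ratios of -0.43 ± 0.13 (ZT8), -0.97 ± 0.13 (ZT12) and -0.89 ± 0.13 (ZT16), with adjusted p of 0.0117, 6.11e-07 and 2.95e-06. Without knockout replicate 3 its ZT8 ratio was -0.23 (adjusted p = 0.0323). Where groups of 6 did not overlap, the exact two-sided permutation test of the means gave p = 0.00216, the smallest that 6 arrays against 6 allow.

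PPARalpha binds as a heterodimer with RXR to direct repeats of a hexamer with 1 base between them, so the 250 bases before each RefSeq start site (GRCm38.p6) were searched on both strands for this direct repeat, AGGTCA, any base and AGGTCA again, with at most 2 mismatches. Of 32841 promoters, 1063 (3.24%) held a match, and of the 36 promoters of the 33 members with an entry 5 (13.9%) did: those of Fabp1, Creb3l3, Echs1, Cd36 and Etfa. Acaa2, Acat1, Crat, Decr1, Hsd17b4 and Vnn1 had no entry. The 3 upstream windows printed here belong to members that were lower at all 3 times with all arrays fitted, though Echs1 lost its ZT8 call without ZT8 knockout replicate 3. They are shown on the gene's own strand, 5′ to 3′, ending at the base before the start site, with the match in capitals. Fabp1 (chr6:71199629-71199878, plus strand) had 1 mismatch and the match ended 54 bases before the start. Creb3l3 (chr10:81092592-81092841, minus strand) and Echs1 (chr7:140116422-140116671, minus strand) had 2 mismatches, with 196 and 70 bases to the start. Cd36 and Etfa, the other 2 with a match, passed at no time on the brightest probe. A match describes these letters and shows no binding.
Fabp1: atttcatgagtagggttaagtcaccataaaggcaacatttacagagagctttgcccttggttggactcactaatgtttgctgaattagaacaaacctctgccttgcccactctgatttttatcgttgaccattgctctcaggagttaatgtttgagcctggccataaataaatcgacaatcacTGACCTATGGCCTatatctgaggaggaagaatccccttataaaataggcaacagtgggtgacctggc
Creb3l3: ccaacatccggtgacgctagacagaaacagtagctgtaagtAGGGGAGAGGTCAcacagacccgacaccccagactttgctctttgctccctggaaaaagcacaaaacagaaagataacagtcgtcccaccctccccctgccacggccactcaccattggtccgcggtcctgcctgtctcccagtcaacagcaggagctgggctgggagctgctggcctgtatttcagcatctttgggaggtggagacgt
Echs1: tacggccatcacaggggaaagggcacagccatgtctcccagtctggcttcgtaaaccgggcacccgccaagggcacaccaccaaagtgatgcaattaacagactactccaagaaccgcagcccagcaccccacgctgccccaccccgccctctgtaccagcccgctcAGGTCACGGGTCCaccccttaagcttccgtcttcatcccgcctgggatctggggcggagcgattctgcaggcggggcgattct

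Among the genes of fatty acid uptake and activation, the liver binding protein and 2 of the long-chain acyl-CoA synthetases fell, and Acsl4 rose. Fabp1 carries fatty acids through the hepatocyte cytosol. At ZT8, Fabp1 read 9.72, 9.84 and 10.02 in controls and 8.49, 9.47 and 9.96 in knockouts. Fabp1 read 9.79, 9.97 and 10.02 in controls and 9.01, 9.13 and 9.38 in knockouts at ZT12, and 9.55, 9.86 and 9.98 in controls and 8.70, 8.91 and 9.45 in knockouts at ZT16. For Fabp1, the groups overlapped at ZT8, and every knockout lay below every control at ZT12 and ZT16. Fabp1 had log2 ratios of -0.47 ± 0.15 (ZT8), -0.77 ± 0.15 (ZT12) and -0.88 ± 0.15 (ZT16), with adjusted p of 0.0139, 0.00011 and 2.1e-05, and -0.26 (adjusted p = 0.0492) at ZT8 without knockout replicate 3. Acsl1 makes acyl-CoA from long-chain fatty acids and is known as the main such enzyme of liver. At ZT8, Acsl1 read 6.44, 6.64 and 6.87 in controls and 5.21, 6.29 and 6.57 in knockouts. Acsl1 read 6.79, 7.06 and 7.31 in controls and 5.56, 6.21 and 6.73 in knockouts at ZT12, and 6.80, 6.92 and 6.98 in controls and 5.81, 5.87 and 6.18 in knockouts at ZT16. For Acsl1, the groups overlapped at ZT8, and every knockout lay below every control at ZT12 and ZT16. Acsl1 had log2 ratios of -0.50 ± 0.16 (ZT8), -0.82 ± 0.16 (ZT12) and -0.98 ± 0.16 (ZT16), with adjusted p of 0.0175, 0.000157 and 1.75e-05, and the ZT8 call was lost without knockout replicate 3, at -0.28 (adjusted p = 0.0718). The dimmest Acsl1 probe missed at ZT8, at -0.51 (adjusted p = 0.275 over all probes fitted), and passed as lower afterwards. The remaining Acsl1 probe passed as lower at all 3 times.

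Acsl5, a related synthetase found on mitochondria and the endoplasmic reticulum, showed the steadiest fall of the synthetases. At ZT8, Acsl5 read 4.01, 4.34 and 4.73 in controls and 3.25, 3.60 and 3.83 in knockouts. Acsl5 read 3.75, 4.15 and 4.76 in controls and 3.20, 3.37 and 3.67 in knockouts at ZT12, and 3.95, 4.21 and 4.41 in controls and 2.89, 3.01 and 3.36 in knockouts at ZT16. For Acsl5, every knockout lay below every control at ZT8, ZT12 and ZT16. Acsl5 had log2 ratios of -0.80 ± 0.13 (ZT8), -0.71 ± 0.13 (ZT12) and -1.11 ± 0.13 (ZT16), with adjusted p of 1.59e-05, 7.04e-05 and 6.35e-08. Another Acsl5 probe gave smaller ratios of -0.34, -0.13 and -0.23, of which the ZT8 value passed (adjusted p = 0.0320 over all probes fitted). Acsl4, a synthetase that prefers arachidonic acid, went the other way. At ZT8, Acsl4 read 3.36, 3.47 and 3.71 in controls and 3.94, 4.48 and 4.78 in knockouts. Acsl4 read 3.95, 4.16 and 4.33 in controls and 4.24, 4.80 and 5.38 in knockouts at ZT12, and 3.30, 3.81 and 4.05 in controls and 3.93, 4.16 and 5.39 in knockouts at ZT16. For Acsl4, every knockout lay above every control at ZT8, and the groups overlapped at ZT12 and ZT16. Acsl4 had log2 ratios of 0.89 ± 0.19 (ZT8), 0.64 ± 0.19 (ZT12) and 0.56 ± 0.19 (ZT16), with adjusted p of 0.000451, 0.0077 and 0.0191. Its ZT16 ratio was 0.44 without ZT16 control replicate 6 and 0.36 without ZT16 knockout replicate 6, and did not pass in either case. Acsl3, a synthetase of lipid droplets, had ratios of 0.07, 0.31 and 0.53, of which the ZT16 value passed (adjusted p = 0.0364). That call was lost without any 1 of 9 ZT16 arrays (control replicates 1, 3, 4, 5 and 6 and knockout replicates 1, 3, 5 and 6), at ratios of 0.45 to 0.53. Cd36, the fatty acid translocase of the cell surface, had ratios of 0.04, 0.32 and 0.12, none of which passed.

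**Figure D2:**
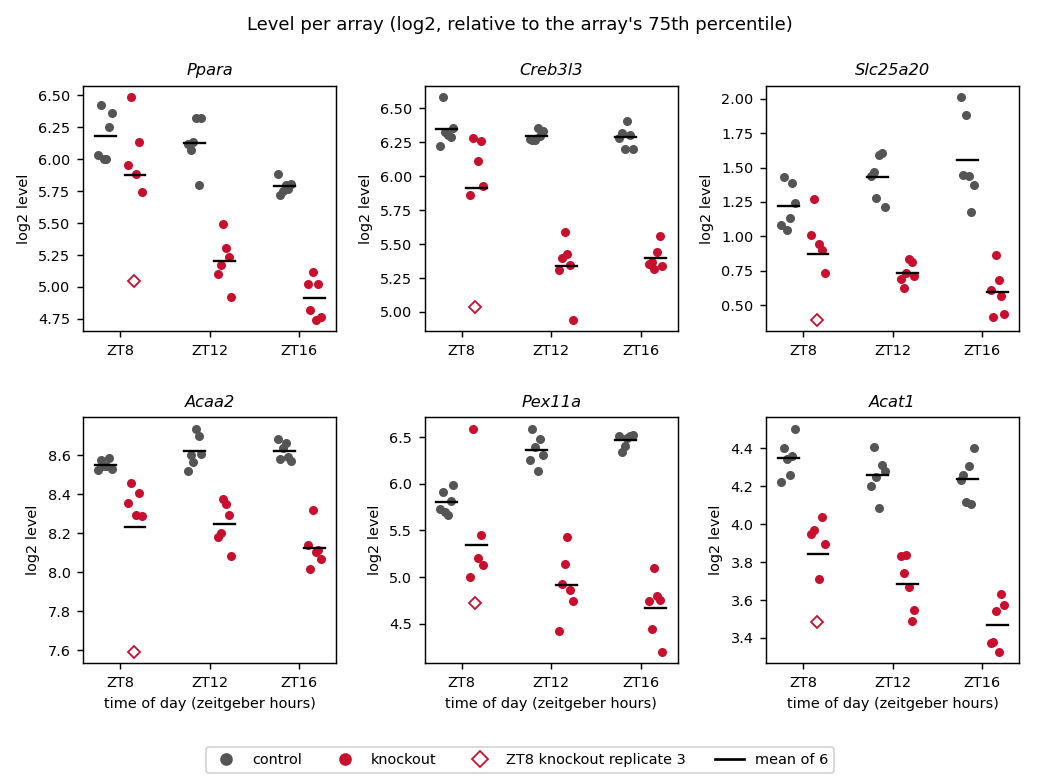
Log2 level relative to the array's 75th percentile (y axis) of Ppara, Creb3l3, Slc25a20, Acaa2, Pex11a and Acat1 at ZT8, ZT12 and ZT16 (x axis). Each point is 1 array, 6 per group, the open diamond is ZT8 knockout replicate 3, and the bars are group means; control and knockout arrays separate in all 6 panels at ZT12 and ZT16, and that replicate is the lowest ZT8 knockout point in Ppara at 5.04 and Creb3l3 at 5.03.

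The carnitine shuttle was split. Cpt1a, whose product on the outer mitochondrial membrane makes acylcarnitine and is the step inhibited by malonyl-CoA, was higher in knockouts at ZT8 and ZT12, whereas the 2 inner membrane members Cpt2 and Slc25a20 were lower at ZT12 and ZT16. At ZT8, Cpt1a read 4.78, 4.94 and 5.12 in controls and 5.11, 5.76 and 5.88 in knockouts. Cpt1a read 4.89, 5.06 and 5.16 in controls and 5.22, 5.52 and 5.86 in knockouts at ZT12, and 4.20, 4.69 and 5.07 in controls and 4.77, 4.88 and 5.12 in knockouts at ZT16. For Cpt1a, the groups overlapped at ZT8 and ZT16, and every knockout lay above every control at ZT12. Cpt1a had log2 ratios of 0.68 ± 0.13 (ZT8), 0.47 ± 0.13 (ZT12) and 0.23 ± 0.13 (ZT16), with adjusted p of 0.000121, 0.00451 and 0.169, with ZT8 values of 0.44 to 0.96 within the 3 wash batches.

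Slc25a20 is the carnitine-acylcarnitine carrier that swaps acylcarnitine for free carnitine, and its probe lies at chr9:108585399-108585458 (mm9). At ZT8, Slc25a20 read 1.05, 1.19 and 1.43 in controls and 0.39, 0.92 and 1.27 in knockouts. Slc25a20 read 1.21, 1.45 and 1.60 in controls and 0.62, 0.72 and 0.84 in knockouts at ZT12, and 1.18, 1.44 and 2.01 in controls and 0.42, 0.59 and 0.87 in knockouts at ZT16. For Slc25a20, the groups overlapped at ZT8, and every knockout lay below every control at ZT12 and ZT16. Slc25a20 had log2 ratios of -0.33 ± 0.12 (ZT8), -0.72 ± 0.12 (ZT12) and -0.97 ± 0.12 (ZT16), with adjusted p of 0.0388, 2.44e-05 and 2.15e-07. The ZT8 call was lost without ZT8 control replicate 2, 4, 5 or 6 or ZT8 knockout replicate 3, 5 or 6, at ratios of -0.33 to -0.21. Cpt2 turns acylcarnitine back into acyl-CoA in the matrix. At ZT8, Cpt2 read 5.37, 5.42 and 5.66 in controls and 5.08, 5.17 and 5.76 in knockouts. Cpt2 read 5.45, 5.69 and 5.83 in controls and 4.83, 4.98 and 5.05 in knockouts at ZT12, and 5.71, 5.80 and 5.96 in controls and 5.28, 5.33 and 5.54 in knockouts at ZT16. For Cpt2, the groups overlapped at ZT8, and every knockout lay below every control at ZT12 and ZT16. Cpt2 had log2 ratios of -0.20 ± 0.08 (ZT8), -0.68 ± 0.08 (ZT12) and -0.46 ± 0.08 (ZT16), with adjusted p of 0.0689, 1.33e-07 and 7.49e-05, and the ZT8 value passed, at -0.29, without ZT8 knockout replicate 2.

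The mitochondrial spiral held calls in both directions. Of 14 matrix and electron-transfer genes, Acadl and Hadhb were higher at ZT8, and Acaa2 and Echs1 were lower at all 3 times. The acyl-CoA dehydrogenases open each round, with Acadvl, Acadl, Acadm and Acads acting on very long, long, medium and short chains. Acadl read 4.41, 4.53 and 4.62 in controls and 4.42, 4.95 and 5.23 in knockouts at ZT8, where the groups overlapped. Acadl had log2 ratios of 0.39 ± 0.09 (ZT8), 0.09 ± 0.09 (ZT12) and -0.01 ± 0.09 (ZT16), with adjusted p of 0.000567, 0.421 and 0.949. Acadm had ratios of 0.09, -0.05 and -0.20, and its ZT16 call (adjusted p = 0.0312) was lost without ZT16 control replicate 3 or 6 or ZT16 knockout replicate 1 or 2, at -0.19 to -0.17. Acadvl had ratios of -0.15, -0.31 and -0.11, of which the ZT12 value passed (adjusted p = 0.00421). Acads had 0.08, -0.05 and -0.06, none past the threshold. Without ZT8 knockout replicate 3, Acadm, at 0.17 (adjusted p = 0.0476), and Acads, at 0.20 (adjusted p = 0.0398), passed as higher at ZT8.

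Hadha and Hadhb encode the alpha and beta subunits of the mitochondrial trifunctional protein, which hydrates, oxidises and cleaves long chains. They sit head to head on chromosome 5, with 272 bases between their RefSeq start sites, so that 228 bases of the Hadhb upstream window are also in that of Hadha. That window is shown because the calls of the 2 subunits differed. It is chr5:30155003-30155252 (GRCm38.p6, plus strand), with the shared bases in capitals.
Hadhb: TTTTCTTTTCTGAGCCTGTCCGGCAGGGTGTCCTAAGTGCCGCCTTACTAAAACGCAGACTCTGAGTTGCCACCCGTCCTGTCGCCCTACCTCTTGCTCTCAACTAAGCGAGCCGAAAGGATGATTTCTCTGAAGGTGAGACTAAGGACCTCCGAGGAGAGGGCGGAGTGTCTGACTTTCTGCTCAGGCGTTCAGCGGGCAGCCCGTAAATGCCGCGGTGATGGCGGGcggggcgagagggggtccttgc

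Hadhb rose at each time and Hadha passed at none. At ZT8, Hadhb read 4.89, 5.08 and 5.18 in controls and 4.94, 5.61 and 5.89 in knockouts. Hadhb read 4.85, 5.07 and 5.16 in controls and 5.18, 5.30 and 5.48 in knockouts at ZT12, and 4.61, 4.83 and 5.05 in controls and 4.93, 5.18 and 5.28 in knockouts at ZT16. For Hadhb, the groups overlapped at ZT8 and ZT16, and every knockout lay above every control at ZT12. Hadhb had log2 ratios of 0.48 ± 0.11 (ZT8), 0.27 ± 0.11 (ZT12) and 0.29 ± 0.11 (ZT16), with adjusted p of 0.000695, 0.0435 and 0.0313. Hadha had 0.03 ± 0.09 (ZT8), -0.07 ± 0.09 (ZT12) and -0.12 ± 0.09 (ZT16), with adjusted p of 0.85, 0.548 and 0.329. The difference Hadhb minus Hadha, taken within each array, was higher in knockouts by 0.46 at ZT8, 0.33 at ZT12 and 0.39 at ZT16. Its knockout range (4.22 to 4.57, 4.19 to 4.50 and 4.14 to 4.38) lay above its control range (3.84 to 4.14, 3.89 to 4.08 and 3.64 to 3.98) at each time. This pair was picked from many after its values were seen, so no p-value is given for the difference. It rests on 1 probe per gene, with mean levels of 5.16 for Hadhb and 1.03 for Hadha. The ZT12 call of Hadhb was lost without any 1 of 8 arrays (control replicates 1, 2, 3, 4 and 6 and knockout replicates 1, 3 and 4, at 0.22 to 0.28) and the ZT16 call without any 1 of 6 (control replicates 2 and 6 and knockout replicates 3, 4, 5 and 6, at 0.22 to 0.28). Of the other 2 Hadhb probes, both passed at ZT8, with 0.70 and 0.50, and neither at ZT12 or ZT16.

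Acaa2 and Echs1 were lower in knockouts at all 3 times. Acaa2 is the matrix thiolase that releases acetyl-CoA. At ZT8, Acaa2 read 8.52, 8.55 and 8.59 in controls and 7.59, 8.33 and 8.46 in knockouts. Acaa2 read 8.52, 8.60 and 8.74 in controls and 8.08, 8.25 and 8.38 in knockouts at ZT12, and 8.57, 8.61 and 8.69 in controls and 8.02, 8.11 and 8.32 in knockouts at ZT16. For Acaa2, every knockout lay below every control at ZT8, ZT12 and ZT16. Acaa2 had log2 ratios of -0.31 ± 0.09 (ZT8), -0.38 ± 0.09 (ZT12) and -0.49 ± 0.09 (ZT16), with adjusted p of 0.00833, 0.00125 and 7.45e-05, and -0.17 (adjusted p = 0.0129) at ZT8 without knockout replicate 3. Echs1 is the short-chain enoyl-CoA hydratase. At ZT8, Echs1 read 5.62, 5.71 and 5.79 in controls and 5.28, 5.40 and 5.84 in knockouts. Echs1 read 5.44, 5.60 and 5.72 in controls and 5.19, 5.32 and 5.52 in knockouts at ZT12, and 5.37, 5.42 and 5.59 in controls and 4.98, 5.05 and 5.28 in knockouts at ZT16. For Echs1, the groups overlapped at ZT8 and ZT12, and every knockout lay below every control at ZT16. Echs1 had log2 ratios of -0.21 ± 0.08 (ZT8), -0.28 ± 0.08 (ZT12) and -0.39 ± 0.08 (ZT16), with adjusted p of 0.038, 0.00601 and 0.000296. Its ZT8 call was lost without ZT8 control replicate 2, 4, 5 or 6 or ZT8 knockout replicate 2, 3, 4 or 6, at -0.21 to -0.17, and its ZT8 ratio was 0.024 within 1 of the 3 wash batches. Another Echs1 probe gave -0.21, -0.37 and -0.32, of which the ZT8 value did not pass (adjusted p = 0.199 over all probes fitted).

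Decr1 and Eci1 handle the double bonds of unsaturated fatty acids. At ZT8, Decr1 read 6.67, 6.76 and 6.85 in controls and 5.91, 6.53 and 6.87 in knockouts. Decr1 read 6.78, 6.90 and 7.02 in controls and 6.04, 6.27 and 6.41 in knockouts at ZT12, and 6.74, 6.85 and 6.97 in controls and 6.00, 6.21 and 6.45 in knockouts at ZT16. For Decr1, the groups overlapped at ZT8, and every knockout lay below every control at ZT12 and ZT16. Decr1 had log2 ratios of -0.24 ± 0.10 (ZT8), -0.63 ± 0.10 (ZT12) and -0.63 ± 0.10 (ZT16), with adjusted p of 0.0708, 1.34e-05 and 1.37e-05. Its ZT8 ratio was -0.11 (adjusted p = 0.312) without ZT8 knockout replicate 3 and passed without replicate 2, at -0.32, or replicate 5, at -0.29. At ZT8, Eci1 read 5.19, 5.25 and 5.56 in controls and 4.07, 5.23 and 5.50 in knockouts. Eci1 read 5.06, 5.48 and 5.57 in controls and 4.42, 4.90 and 5.16 in knockouts at ZT12, and 5.22, 5.46 and 5.59 in controls and 4.64, 4.98 and 5.09 in knockouts at ZT16. For Eci1, the groups overlapped at ZT8 and ZT12, and every knockout lay below every control at ZT16. Eci1 had log2 ratios of -0.19 ± 0.16 (ZT8), -0.60 ± 0.16 (ZT12) and -0.52 ± 0.16 (ZT16), with adjusted p of 0.365, 0.00279 and 0.0102, and 0.04 (adjusted p = 0.809) at ZT8 without knockout replicate 3. Hadh, the medium- and short-chain hydroxyacyl-CoA dehydrogenase, had ratios of 0.21, -0.18 and -0.30. Only its ZT16 value passed (adjusted p = 0.0256), which was lost without ZT16 control replicate 6 or ZT16 knockout replicate 1 or 5, at -0.28 to -0.24, and without ZT8 knockout replicate 3 Hadh passed as higher at ZT8, at 0.31 (adjusted p = 0.0128).

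Etfa, Etfb and Etfdh pass the electrons of the dehydrogenases to the respiratory chain. At ZT8, Etfdh read 5.06, 5.16 and 5.21 in controls and 4.18, 4.94 and 5.05 in knockouts. Etfdh read 4.66, 4.81 and 5.12 in controls and 4.12, 4.30 and 4.32 in knockouts at ZT12, and 4.53, 4.87 and 5.05 in controls and 4.38, 4.52 and 4.87 in knockouts at ZT16. For Etfdh, every knockout lay below every control at ZT8 and ZT12, and the groups overlapped at ZT16. Etfdh had log2 ratios of -0.32 ± 0.11 (ZT8), -0.59 ± 0.11 (ZT12) and -0.24 ± 0.11 (ZT16), with adjusted p of 0.0224, 6.23e-05 and 0.0766. The ZT8 call was lost without ZT8 control replicate 5, at -0.29, or ZT8 knockout replicate 3, at -0.19, and another Etfdh probe passed at no time, with ratios of 0.24, -0.29 and 0.02. The ZT16 value passed without ZT16 control replicate 6, at -0.29, ZT16 knockout replicate 3, at -0.28, or replicate 5, at -0.29, or ZT8 knockout replicate 3, at -0.25. Etfb had ratios of 0.07, -0.08 and -0.21, of which the ZT16 value passed (adjusted p = 0.0111) and was lost, at -0.17, without ZT16 control replicate 6. Etfa had -0.11, -0.07 and -0.02, none past the threshold. Another Etfa probe passed as lower at ZT8, at -0.21 (adjusted p = 0.0393), and a further one passed at no time.

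The 3 members Crat, Ech1 and Eci2 are known in both organelles, and each followed a different course. Crat exchanges short acyl groups between carnitine and CoA. At ZT8, Crat read 1.07, 1.69 and 1.92 in controls and 1.66, 2.48 and 3.74 in knockouts. Crat read 1.73, 1.96 and 2.92 in controls and 1.45, 1.63 and 1.78 in knockouts at ZT12, and 2.20, 2.32 and 2.64 in controls and 2.13, 2.20 and 2.41 in knockouts at ZT16. For Crat, the groups overlapped at ZT8, ZT12 and ZT16. Crat had log2 ratios of 0.80 ± 0.23 (ZT8), -0.49 ± 0.23 (ZT12) and -0.17 ± 0.23 (ZT16), with adjusted p of 0.0066, 0.0852 and 0.592. Its ZT8 ratio was 0.52 without ZT8 knockout replicate 2, still past the threshold. Another, dimmer Crat probe passed at no time, with ratios of 0.37, -0.49 and -0.24. Ech1 shifts double bonds of dienoyl-CoA. At ZT8, Ech1 read 5.46, 5.56 and 5.73 in controls and 4.58, 5.32 and 5.65 in knockouts. Ech1 read 5.48, 5.67 and 5.72 in controls and 4.97, 5.08 and 5.43 in knockouts at ZT12, and 5.47, 5.68 and 5.88 in controls and 5.06, 5.26 and 5.53 in knockouts at ZT16. For Ech1, the groups overlapped at ZT8 and ZT16, and every knockout lay below every control at ZT12. Ech1 had log2 ratios of -0.31 ± 0.12 (ZT8), -0.45 ± 0.12 (ZT12) and -0.39 ± 0.12 (ZT16), with adjusted p of 0.042, 0.00265 and 0.00858, and the ZT8 call was lost without ZT8 control replicate 2, 4, 5 or 6 or ZT8 knockout replicate 3 or 5, at -0.32 to -0.15. Eci2, an enoyl-CoA isomerase, had ratios of 0.13, -0.25 and -0.47, none past the threshold, and 0.38 (adjusted p = 0.0708) at ZT8 without knockout replicate 3. Its ZT16 value passed without ZT16 knockout replicate 3, at -0.56, or ZT8 knockout replicate 3, at -0.49. Another Eci2 probe passed as lower at ZT16 with all arrays, at -0.59 (adjusted p = 0.0307).

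Peroxisomal genes ran from Pex11a, with the lowest log2 ratios of the 39 genes at ZT12 and ZT16, to Crot, which was higher in knockouts at both of these times. Pex11a encodes a membrane protein of peroxisome elongation and division, and its probe lies at chr7:86882223-86882282 (mm9). At ZT8, Pex11a read 5.67, 5.78 and 5.99 in controls and 4.72, 5.17 and 6.59 in knockouts. Pex11a read 6.14, 6.35 and 6.59 in controls and 4.42, 4.89 and 5.43 in knockouts at ZT12, and 6.34, 6.50 and 6.52 in controls and 4.20, 4.75 and 5.09 in knockouts at ZT16. For Pex11a, the groups overlapped at ZT8, and every knockout lay below every control at ZT12 and ZT16. Pex11a had log2 ratios of -0.43 ± 0.20 (ZT8), -1.47 ± 0.20 (ZT12) and -1.81 ± 0.20 (ZT16), with adjusted p of 0.084, 4.88e-07 and 1.26e-08, and the ZT16 ratio is a level 3.51 times lower than in controls. Its ZT8 value was -0.29 (adjusted p = 0.258) without ZT8 knockout replicate 3 and passed, at -0.70, without replicate 2. Within the wash batches the ZT16 ratio ran from -1.88 to -1.72.

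Hsd17b4 encodes the bifunctional protein of the peroxisomal spiral for branched and very long chains. At ZT8, Hsd17b4 read 6.00, 6.05 and 6.14 in controls and 4.89, 5.74 and 5.97 in knockouts. Hsd17b4 read 6.10, 6.20 and 6.40 in controls and 5.32, 5.58 and 5.67 in knockouts at ZT12, and 6.13, 6.21 and 6.29 in controls and 5.35, 5.63 and 5.79 in knockouts at ZT16. For Hsd17b4, every knockout lay below every control at ZT8, ZT12 and ZT16. Hsd17b4 had log2 ratios of -0.42 ± 0.11 (ZT8), -0.70 ± 0.11 (ZT12) and -0.57 ± 0.11 (ZT16), with adjusted p of 0.00294, 5.37e-06 and 9.66e-05, and -0.27 (adjusted p = 0.00562) at ZT8 without knockout replicate 3. Ehhadh encodes the other peroxisomal bifunctional enzyme, which acts on straight chains. At ZT8, Ehhadh read 3.21, 3.36 and 3.55 in controls and 3.64, 3.76 and 5.31 in knockouts. Ehhadh read 3.22, 3.39 and 4.11 in controls and 3.26, 3.45 and 4.96 in knockouts at ZT12, and 3.27, 3.61 and 4.69 in controls and 3.28, 3.56 and 4.42 in knockouts at ZT16. For Ehhadh, every knockout lay above every control at ZT8, and the groups overlapped at ZT12 and ZT16. Ehhadh had log2 ratios of 0.78 ± 0.28 (ZT8), 0.21 ± 0.28 (ZT12) and -0.15 ± 0.28 (ZT16), with adjusted p of 0.0269, 0.577 and 0.706. The ZT8 call was lost without ZT8 control replicate 2, at 0.70, ZT8 knockout replicate 2, at 0.57, or ZT8 knockout replicate 3, at 0.68. The 2 bifunctional enzymes thus lay on opposite sides of their controls at ZT8.

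Acaa1a and Acaa1b encode closely related peroxisomal thiolases, at chr9:119259353-119259412 and chr9:119057326-119057385 (mm9), and cross-hybridisation between their probes was not tested. At ZT8, Acaa1a read 7.23, 7.25 and 7.48 in controls and 7.28, 7.42 and 8.03 in knockouts. Acaa1a read 7.26, 7.41 and 7.66 in controls and 6.87, 7.07 and 7.33 in knockouts at ZT12, and 7.29, 7.41 and 7.69 in controls and 6.60, 6.73 and 6.88 in knockouts at ZT16. For Acaa1a, the groups overlapped at ZT8 and ZT12, and every knockout lay below every control at ZT16. Acaa1a had log2 ratios of 0.20 ± 0.09 (ZT8), -0.30 ± 0.09 (ZT12) and -0.71 ± 0.09 (ZT16), with adjusted p of 0.0882, 0.0105 and 4.12e-07. Without ZT8 knockout replicate 3 the ZT8 value passed as higher, at 0.26 (adjusted p = 0.0271), whereas another Acaa1a probe gave -0.24, -0.68 and -0.83, of which the last 2 passed. At ZT8, Acaa1b read 5.68, 6.07 and 6.28 in controls and 4.31, 5.81 and 6.47 in knockouts. Acaa1b read 6.02, 6.13 and 6.53 in controls and 4.90, 5.05 and 5.41 in knockouts at ZT12, and 5.99, 6.10 and 6.19 in controls and 4.87, 5.35 and 5.93 in knockouts at ZT16. For Acaa1b, the groups overlapped at ZT8, and every knockout lay below every control at ZT12 and ZT16. Acaa1b had log2 ratios of -0.37 ± 0.21 (ZT8), -1.12 ± 0.21 (ZT12) and -0.73 ± 0.21 (ZT16), with adjusted p of 0.18, 9.82e-05 and 0.00663. Its ZT8 value was -0.08 (adjusted p = 0.734) without ZT8 knockout replicate 3 and passed, at -0.56, without replicate 2. Decr2, the peroxisomal dienoyl-CoA reductase, had ratios of 0.07, 0.02 and -0.02, none past the threshold.

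Crot makes carnitine esters of medium-length chains so that they can leave the peroxisome, and its main probe lies at chr5:8966430-8966489 (mm9). At ZT8, Crot read 5.06, 5.14 and 5.31 in controls and 4.43, 4.79 and 5.08 in knockouts. Crot read 3.84, 3.98 and 4.25 in controls and 4.09, 4.47 and 4.73 in knockouts at ZT12, and 3.79, 4.04 and 4.22 in controls and 4.68, 5.08 and 5.40 in knockouts at ZT16. For Crot, the groups overlapped at ZT8 and ZT12, and every knockout lay above every control at ZT16. Crot had log2 ratios of -0.33 ± 0.12 (ZT8), 0.38 ± 0.12 (ZT12) and 1.04 ± 0.12 (ZT16), with adjusted p of 0.0305, 0.0101 and 3.2e-08. The ZT8 call was lost without ZT8 control replicate 2 or 4 or ZT8 knockout replicate 3, 5 or 6, at -0.31 to -0.24. Another Crot probe, assigned to an Ensembl transcript, read -0.88, -0.31 and -0.01 in controls and 0.38, 1.1 and 1.98 in knockouts at ZT8. On that probe knockouts were higher at every time, with log2 ratios of 1.45, 0.88 and 1.01 (adjusted p = 9.29e-06, 0.00273 and 0.000769 over all probes fitted). Both probes were higher in knockouts at ZT12 and ZT16 and were opposed at ZT8, where averaging them gave 0.56 (adjusted p = 0.00487).

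The 2 ketone body members differed. Acat1 encodes the mitochondrial acetoacetyl-CoA thiolase, which works in ketone body synthesis and breakdown, and its probe lies at chr9:53389868-53389927 (mm9). At ZT8, Acat1 read 4.22, 4.35 and 4.51 in controls and 3.48, 3.92 and 4.04 in knockouts. Acat1 read 4.09, 4.27 and 4.41 in controls and 3.49, 3.71 and 3.84 in knockouts at ZT12, and 4.11, 4.25 and 4.40 in controls and 3.33, 3.46 and 3.63 in knockouts at ZT16. For Acat1, every knockout lay below every control at ZT8, ZT12 and ZT16. Acat1 had log2 ratios of -0.51 ± 0.09 (ZT8), -0.57 ± 0.09 (ZT12) and -0.77 ± 0.09 (ZT16), with adjusted p of 2.51e-05, 3.18e-06 and 2.01e-08, running from -0.87 to -0.67 within the wash batches at ZT16. Bdh1 encodes 3-hydroxybutyrate dehydrogenase, which makes 3-hydroxybutyrate from acetoacetate. At ZT8, Bdh1 read 5.76, 5.83 and 5.93 in controls and 5.67, 6.15 and 6.45 in knockouts. Bdh1 read 5.41, 5.51 and 5.73 in controls and 5.08, 5.37 and 5.41 in knockouts at ZT12, and 4.66, 5.0 and 5.16 in controls and 5.07, 5.21 and 5.37 in knockouts at ZT16. For Bdh1, the groups overlapped at ZT8, ZT12 and ZT16. Bdh1 had log2 ratios of 0.28 ± 0.10 (ZT8), -0.25 ± 0.10 (ZT12) and 0.24 ± 0.10 (ZT16), with adjusted p of 0.0355, 0.0519 and 0.0681. Another Bdh1 probe passed at all 3 times, with ratios of 0.30, -0.28 and 0.27 (adjusted p = 0.0281, 0.0309 and 0.0455). On the brightest probe the ZT8 call was lost without ZT8 control replicate 3, 4, 5 or 6 or ZT8 knockout replicate 2, 4 or 5, at 0.20 to 0.28. Without 1 of some other arrays the remaining times passed: the ZT12 value as lower (ZT8 knockout replicate 2 or 3, ZT12 control replicate 1 or 3, ZT12 knockout replicate 5, or ZT16 control replicate 3 or 4, at -0.28 to -0.25) and the ZT16 value as higher (ZT8 knockout replicate 2 or 3 or ZT16 control replicate 4, at 0.22 to 0.27).

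**Figure D3:**
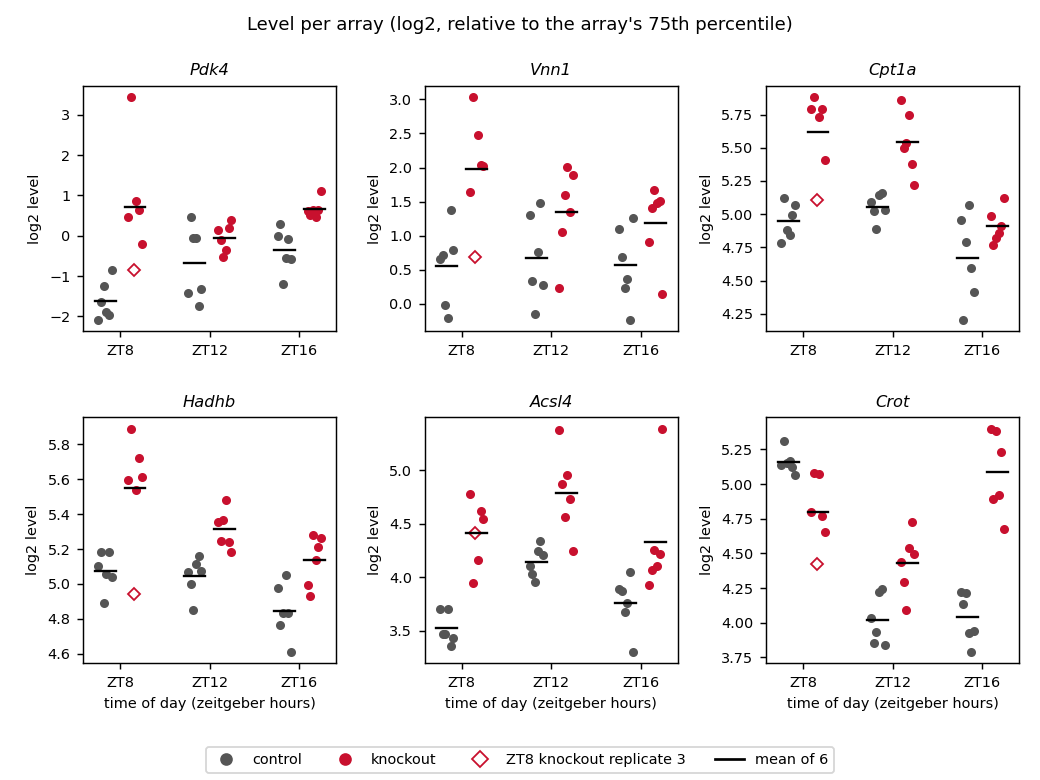
Log2 level relative to the array's 75th percentile (y axis) of Pdk4, Vnn1, Cpt1a, Hadhb, Acsl4 and Crot at ZT8, ZT12 and ZT16 (x axis), 1 point per array, 6 per group, with group means as bars and ZT8 knockout replicate 3 as an open diamond. Pdk4 knockouts spread from -0.85 to 3.44 at ZT8, above the highest control at -0.86, and Crot knockouts all lie above the controls at ZT16 (4.68 to 5.40 against 3.79 to 4.22).

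Pdk4 and Vnn1 had the highest ratios of the set, both at ZT8. Pdk4 encodes a kinase that switches off pyruvate dehydrogenase and so spares glucose while fat is burned, and its probe lies at chr6:5433441-5433500 (mm9). At ZT8, Pdk4 read -2.10, -1.76 and -0.86 in controls and -0.85, 0.55 and 3.44 in knockouts. Pdk4 read -1.73, -0.68 and 0.46 in controls and -0.53, 0.01 and 0.38 in knockouts at ZT12, and -1.21, -0.32 and 0.29 in controls and 0.46, 0.62 and 1.12 in knockouts at ZT16. For Pdk4, every knockout lay above every control at ZT8 and ZT16, and the groups overlapped at ZT12. Pdk4 had log2 ratios of 2.30 ± 0.45 (ZT8), 0.66 ± 0.45 (ZT12) and 1.02 ± 0.45 (ZT16), with adjusted p of 0.000174, 0.248 and 0.0723, the ZT8 ratio being a 4.94-fold rise, and 2.66 (adjusted p = 1.92e-05) without knockout replicate 3. At ZT16 the exact two-sided permutation test gave p = 0.00216, though the adjusted p of the fit missed the threshold. The adjusted p of the fit at ZT16 passed, with a ratio of 1.08, without ZT8 knockout replicate 2. Vnn1 encodes pantetheinase, which yields cysteamine and the CoA precursor pantothenate. At ZT8, Vnn1 read -0.21, 0.69 and 1.38 in controls and 0.69, 2.03 and 3.04 in knockouts. Vnn1 read -0.15, 0.55 and 1.48 in controls and 0.23, 1.47 and 2.01 in knockouts at ZT12, and -0.24, 0.53 and 1.26 in controls and 0.15, 1.44 and 1.68 in knockouts at ZT16. For Vnn1, the groups overlapped at ZT8, ZT12 and ZT16. Vnn1 had log2 ratios of 1.45 ± 0.37 (ZT8), 0.67 ± 0.37 (ZT12) and 0.59 ± 0.37 (ZT16), with adjusted p of 0.00262, 0.144 and 0.204, and its ZT12 value passed, at 0.93, without ZT12 knockout replicate 1.

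The mitochondrial, peroxisomal and ketogenic subsets were set side by side, with the 3 carnitine genes counted as mitochondrial. Of 17 mitochondrial members, 3 were higher and 4 lower at ZT8, 2 and 8 at ZT12, and 1 and 9 at ZT16. Of 7 peroxisomal members, 1 was higher and 2 lower at ZT8, and 1 and 4 at each later time. Of the 2 ketogenic members, 1 was higher and 1 lower at ZT8, and 1 lower at ZT12 and at ZT16. Of all genes 16.7% were higher and 18.7% lower at ZT8, 19.6% and 22.7% at ZT12, and 20.0% and 20.1% at ZT16, beside 17.6% and 23.5%, 11.8% and 47.1%, and 5.88% and 52.9% of the mitochondrial members, and 14.3% and 28.6%, 14.3% and 57.1%, and 14.3% and 57.1% of the peroxisomal members. The median log2 ratios were -0.11, -0.18 and -0.21 for the mitochondrial subset, -0.33, -0.30 and -0.57 for the peroxisomal and -0.12, -0.41 and -0.27 for the ketogenic one. The peroxisomal ZT8 median was the ratio of Crot on its brightest probe. With all kept probes of a gene averaged, the peroxisomal median was -0.017 at ZT8 and -0.49 at ZT12. The median size of the ratio, without its sign, was 0.21, 0.28 and 0.24 in mitochondrial members, 0.37, 0.38 and 0.71 in peroxisomal members and 0.25, 0.29 and 0.28 over all genes. The difference between subsets was not tested, since members are not replicates. Without ZT8 knockout replicate 3, the ZT8 counts were 6 higher and 1 lower for the mitochondrial subset (median 0.04) and 1 and 1 for the peroxisomal (median -0.08).

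The time courses were compared within each genotype and between genotypes. The knockout effect depended on time, by an F test, in 7 of the 39 members with all arrays and in 25 without ZT8 knockout replicate 3, against 8.46% of all genes with all arrays and 13.1% without that replicate. With array weights 23 members passed, and the share of all genes passing with weights was not counted. Weights also raised the knockout calls over all genes, from 8128 to 9351 at ZT8 and from 9167 to 10802 at ZT16. In controls 6 members rose and 4 fell from ZT8 to ZT16 (25.6% of members against 26.6% of all genes). The risers were Cpt2, Slc25a20, Etfb, Crat, Pex11a and Pdk4, and the others Echs1, Etfdh, Crot and Bdh1. From ZT8 to ZT12, 2 rose and 2 fell, against 14.8% of all genes (1 to 6 in all over the arrays left out in turn), and from ZT12 to ZT16 1 fell, against 3.62%. In knockouts 18 members fell from ZT8 to ZT16 and none rose (46.2% against 28.9% of all genes, of which 15.5% rose and 13.4% fell), and the ratio was negative in 34 of the 39, with a median of -0.29. From ZT8 to ZT12, 1 rose and 10 fell in knockouts, against 13.2%, and from ZT12 to ZT16, 3 rose and 3 fell, against 12.6%. The ZT8 to ZT12 count of 11 ran from 6 to 25 over the arrays left out in turn, with 25 without ZT8 knockout replicate 3, 6 without replicate 2 and 7 without replicate 5.

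**Figure D4:**
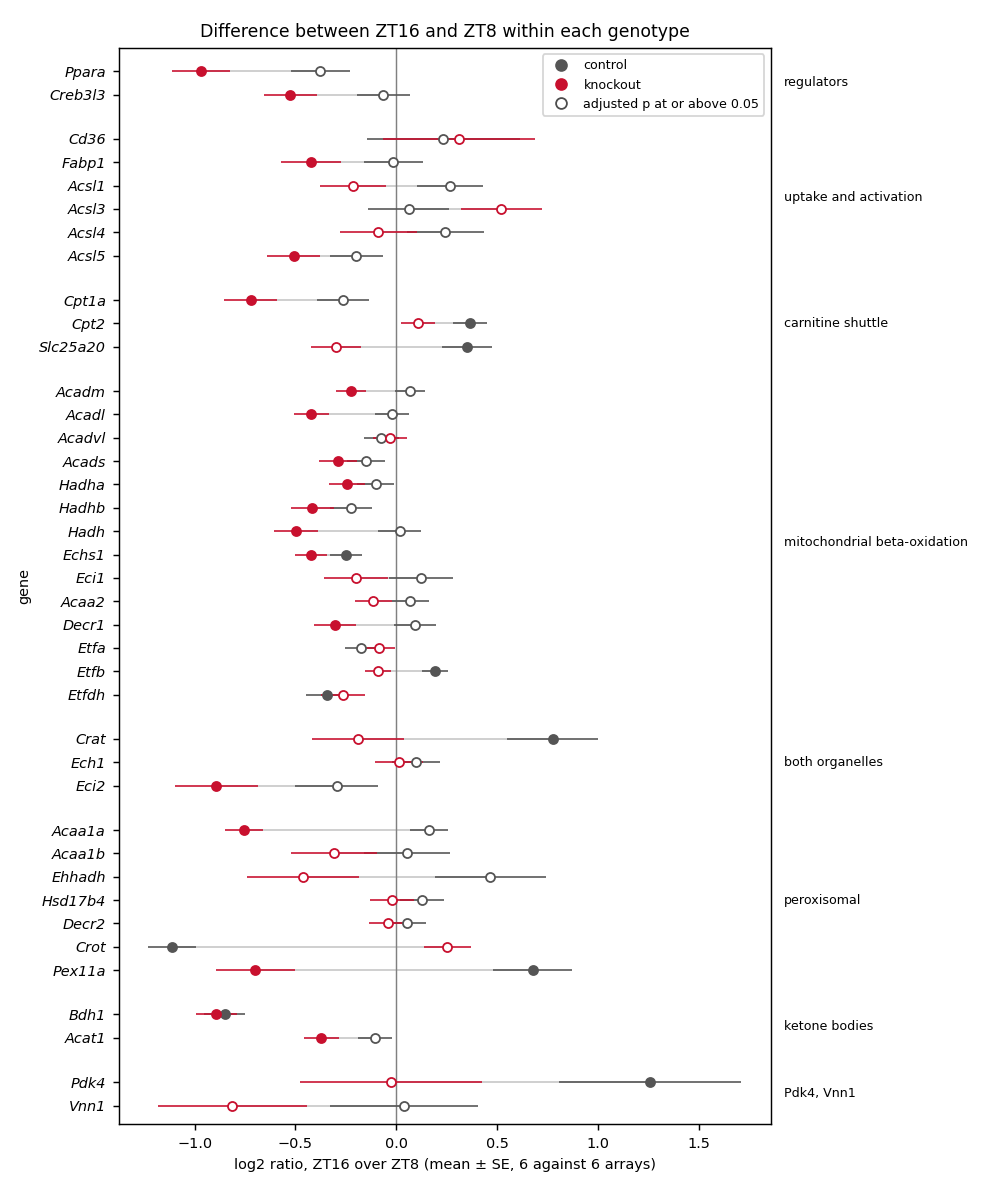
Log2 ratio of ZT16 over ZT8 (x axis, mean with standard error, 6 arrays against 6) in controls and in knockouts for each of the 39 genes (y axis, grouped by role), joined by a grey line. Filled points passed an adjusted p of 0.05; 18 knockout points are filled and all lie left of zero, the control points of Crat, Pdk4 and Pex11a lie to the right, and Crot shows its control at -1.11 beside a knockout value of 0.25.

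Whether the knockout effect depended on time was tested with an F test over the 3 times. Cpt2, Slc25a20, Crat, Acaa1a, Crot, Pex11a and Bdh1 passed, 7 of 39 (17.9%) against 8.46% of all genes. Crot had the smallest adjusted p (1.64e-05). Crot fell in controls from ZT8 to ZT16 by 1.11 on the log2 scale (adjusted p = 1.93e-08) and shifted by 0.25 ± 0.12 (adjusted p = 0.112) in knockouts. From ZT8 to ZT12 Crot shifted by -1.14 ± 0.12 (adjusted p = 4.55e-08) in controls and -0.43 ± 0.12 (adjusted p = 0.0158) in knockouts. The knockout ratio of Crot changed by 1.37 ± 0.17 (adjusted p = 3.53e-06) from ZT8 to ZT16. With the Crot probes averaged, the F test did not pass (adjusted p = 0.337), so this result holds for the brightest probe.

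The ZT8 to ZT16 shift of Pex11a, Slc25a20 and Acaa1a differed between the genotypes. Pex11a shifted by 0.68 ± 0.20 (adjusted p = 0.00951) in controls and -0.70 ± 0.20 (adjusted p = 0.00662) in knockouts from ZT8 to ZT16. The difference was -1.38 ± 0.28 (adjusted p = 0.00132), with an F test adjusted p of 0.00347. Slc25a20 shifted by 0.35 ± 0.12 (adjusted p = 0.0338) in controls and -0.30 ± 0.12 (adjusted p = 0.07) in knockouts. Its difference was -0.65 ± 0.18 (adjusted p = 0.0148), with an F test adjusted p of 0.0426. Acaa1a shifted by 0.16 ± 0.09 (adjusted p = 0.225) in controls and -0.76 ± 0.09 (adjusted p = 2.8e-07) in knockouts, a difference of -0.92 ± 0.13 (adjusted p = 3.56e-05) (F test adjusted p = 0.000158).

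From ZT8 to ZT16 Crat shifted by 0.78 ± 0.23 (adjusted p = 0.0104) in controls and -0.19 ± 0.23 (adjusted p = 0.6) in knockouts. The difference, -0.97 ± 0.32 (adjusted p = 0.0541), missed the threshold, and that between ZT8 and ZT12, -1.28 ± 0.32 (adjusted p = 0.042), passed, with an F test adjusted p of 0.0224. Cpt2 shifted by 0.37 ± 0.08 (adjusted p = 0.0014) in controls and 0.11 ± 0.08 (adjusted p = 0.388) in knockouts. Its difference between ZT8 and ZT16, -0.26 ± 0.12 (adjusted p = 0.188), missed the threshold, and that between ZT8 and ZT12, -0.49 ± 0.12 (adjusted p = 0.0374), passed, with an F test adjusted p of 0.0256. Bdh1 fell from ZT8 to ZT16 by 0.85 in controls and 0.89 in knockouts on the log2 scale. Bdh1 passed the F test (adjusted p = 0.0271), while none of its differences between 2 times did (-0.52 between ZT8 and ZT12, 0.48 between ZT12 and ZT16 and -0.041 between ZT8 and ZT16). Ppara, at -0.38 in controls and -0.97 in knockouts, did not pass (F test adjusted p = 0.071).

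These tests of timing leaned on the array that stood apart. Without ZT8 knockout replicate 3, 25 members passed the F test against 13.1% of all genes, including the 7 named above, 12 of the 17 mitochondrial members and 5 of the 7 peroxisomal members. Ppara then passed (adjusted p = 0.000275), as did Creb3l3 (adjusted p = 0.000124, from 0.109 with all arrays). In that fit 25 members fell and 1 rose from ZT8 to ZT16 in knockouts, against 32.8% of all genes. The median member ratio between these times was -0.42 without the array and -0.29 with it. Leaving out ZT8 knockout replicate 2 instead moved the timing tests the other way. The knockout effect changed from ZT8 to ZT16 in 6 members with all arrays, 4 without replicate 2 and 22 without replicate 3. The shares of all genes for this count were not taken.

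**Figure D5:**
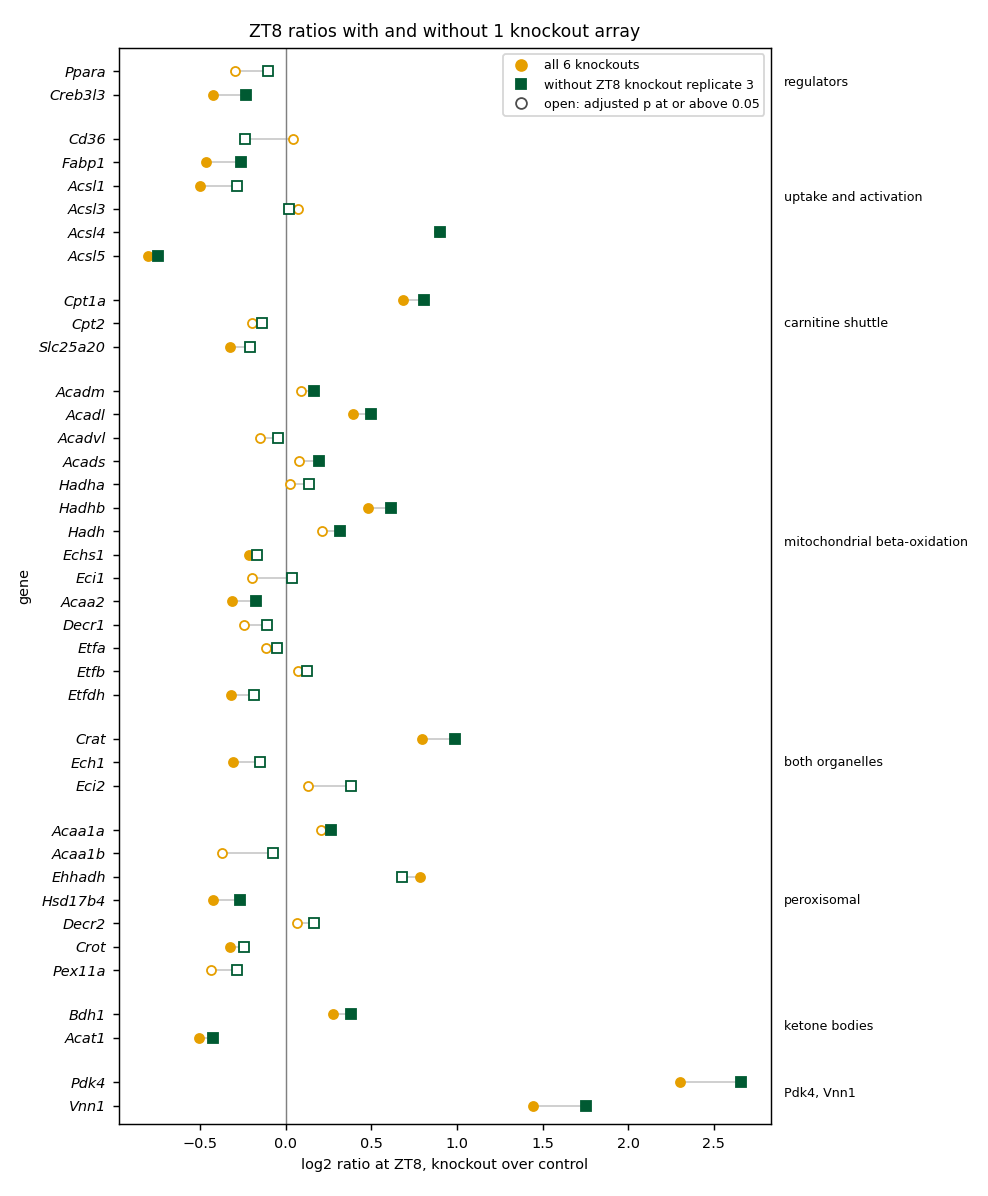
Log2 ratio of knockout over control at ZT8 (x axis) for each of the 39 genes (y axis, grouped by role), with all 6 knockout arrays (circles) and without ZT8 knockout replicate 3 (squares). Filled marks passed an adjusted p of 0.05; without the array most points move to the right, and the counts go from 9 higher and 12 lower to 12 higher and 6 lower. Leaving out ZT8 knockout replicate 2 instead, which is not drawn, gave 7 higher and 17 lower.

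Members also varied together from array to array, though the same correlations were not taken over other genes. After group and wash batch means were removed, the median Pearson correlation over the 741 pairs of members was 0.46 across the 36 arrays and 0.21 without ZT8 knockout replicate 3. It was 0.54 (0.28 without that array) over the 136 mitochondrial pairs, 0.45 (0.35) over the 21 peroxisomal pairs and 0.46 (0.25) between the subsets. These values describe the arrays, which also share hybridisation and scaling, and no test was made of them.

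Genes of the same pathways outside the set were also counted, 83 of them, from a list of further peroxisomal, mitochondrial, ketone body, PPARalpha target, regulator and uptake genes. At ZT8, 22 were higher and 25 lower in knockouts, at ZT12 14 and 32, and at ZT16 13 and 33, beside 16.7% and 18.7%, 19.6% and 22.7%, and 20.0% and 20.1% of all genes. Of 24 further peroxisomal genes, 4, 1 and 2 were higher and 15, 17 and 16 lower in time order. Of 15 further PPARalpha targets, 7 were higher and 1 lower at ZT8, 3 and 4 at ZT12, and 2 and 4 at ZT16. The coactivator gene Ppargc1a, a partner of PPARalpha, was higher at every time, with log2 ratios of 2.19 ± 0.19 (ZT8), 2.20 ± 0.19 (ZT12) and 1.89 ± 0.19 (ZT16), with adjusted p of 2.88e-10, 1.88e-10 and 3.34e-09. The smallest p-values among lower genes belonged to Fabp2, a fatty acid binding protein (-3.16, -3.66 and -3.33), Nudt7, a peroxisomal CoA hydrolase (-2.44, -2.63 and -2.62), Dbi, the acyl-CoA binding protein (-0.81, -1.11 and -0.62), Pecr, a peroxisomal trans-enoyl-CoA reductase (-0.91, -1.12 and -1.32), and Bdh2 (-1.54, -1.47 and -1.85), and all passed at each time. Acot4, Acot5 and Slc16a7 had the smallest F test p-values of this list. The peroxisomal thioesterase Acot4 had ratios of 1.16, -0.22 and -0.79 and Acot5 of 1.68, 0.10 and -1.07. Slc16a7, a monocarboxylate carrier, had 0.60, 0.07 and -0.51, and the ZT8 and ZT16 values of all 3 passed, higher at ZT8 and lower at ZT16.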

How the data were processed

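Total RNA of 36 mouse livers was hybridised to 1-colour Agilent arrays, 1 array per sample. The deposited scanner files hold a spot intensity per probe, background subtracted and detrended within the array by Agilent Feature Extraction 10.10.1.1, per the file headers, together with the authors' other columns, such as flags for spots well above background. The authors also deposited a table of log2 values, quantile normalised as judged from its columns, made with limma per the submitters' processing notes, and it served as an alternative.

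The log2 intensity minus each array's 75th percentile was analysed. A probe counted as well above background on an array where at least 50% of its spots did, and 34771 of 56605 probes did so on at least 6 arrays. Of these, 93 with a missing value were dropped, and the brightest of the rest represented each gene, named as on the array. Ratios of other probes came from the same fit over all the remaining probes, with p-values adjusted over them. All 36 arrays were fitted by limma (version 3.58.1, lmFit and eBayes, under R 4.3.3) on the 6 groups, adding wash batch (3, each holding every group) as a fixed effect, and p-values were adjusted by Benjamini-Hochberg over 22916 genes at 0.05. The F test covered both differences of the genotype effect over time. The fit was tested on simulated data. Input was read with the data.table package (version 1.17.8), and plots were drawn with matplotlib 3.10.9 in Python 3.11.15.

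The members, subsets and lists were chosen with earlier results of these data known. Values in every group are given for members called at 2 or more times or past the F test, for Ppara, Cpt1a, Pdk4, Ehhadh, Bdh1 and Acat1, and of other pathway genes the 3 with the smallest p in each genotype comparison or F test were named. Alternatives changed the background correction, normalisation, input table, probe filter, covariates, arrays fitted, weights, probe per gene and subset membership, or left out 1 array. The number of arrays limits the precision. Array probe positions are mm9, and the files give neither strand nor exon. Markers of hepatocytes, endothelium, macrophages, stellate cells, bile duct, lymphocytes, fat and red cells that passed the filter were summed per array.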

Additional observations from a re-analysis of the deposited data

Results flagged for a closer look

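In groups of 6 arrays, an array was noted where its gap to the nearest of the others exceeded Dixon's 95% critical value as a share of the group's range. Among 162 groups of 27 genes this picked 21 arrays, where chance picks about 1 in 20 groups, or 8.1. ZT8 knockout replicate 3 accounted for 8 of them, each below the range of the other 5 arrays: Creb3l3 at 5.03 (others 5.86 to 6.28), Acsl1 at 5.21 (6.14 to 6.57), Hadhb at 4.94 (5.54 to 5.89), Eci1 at 4.07 (5.14 to 5.50), Acaa2 at 7.59 (8.29 to 8.46), Etfdh at 4.18 (4.88 to 5.05), Ech1 at 4.58 (5.30 to 5.65) and Hsd17b4 at 4.89 (5.70 to 5.97). ZT8 knockout replicate 2 was high in Cpt2 at 5.76 (others 5.08 to 5.28) and Acaa1a at 8.03 (7.28 to 7.52). ZT16 knockout replicate 6 was high in Acsl4 at 5.39 (3.93 to 4.25), Acsl5 at 3.36 (2.89 to 3.07), Echs1 at 5.28 (4.98 to 5.06) and Pdk4 at 1.12 (0.46 to 0.65).

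ZT8 control replicate 2 was high in Creb3l3 at 6.58 (others 6.22 to 6.36) and Acaa1a at 7.48 (7.23 to 7.30). ZT12 control replicate 2 was high in Crat at 2.92 (1.73 to 2.17) and Ehhadh at 4.11 (3.22 to 3.43). ZT12 knockout replicate 6 was high in Ehhadh at 4.96 (3.26 to 3.64). ZT16 control replicate 3 was low in Fabp1 at 9.55 (9.84 to 9.98), and ZT16 knockout replicate 5 was low in Insr at -3.75 (-3.24 to -3.08).

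The knockout effect differed over the 3 times by the F test in 7 members. From ZT8 to ZT16 the log2 ratio of knockout over control changed by -0.26 in Cpt2, -0.65 in Slc25a20, -0.97 in Crat, -0.92 in Acaa1a, 1.37 in Crot, -1.38 in Pex11a and -0.041 in Bdh1, and this change itself missed the threshold in Cpt2, Crat and Bdh1 (adjusted p = 0.188, 0.0541 and 0.922). With all kept probes of a gene averaged, 4 members passed this test.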

How the results depend on the processing

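Of 2320 ratios and F tests of single genes under other settings, 2165 kept their side of the threshold without a reversal. Of the rest 89 newly passed, 65 no longer passed and 1 reversed with its call. With 1 array left out 7015 of 7200 kept their side without a reversal, 79 newly passing and 106 no longer. A reversal was a change of sign where at least 1 of the 2 fits passed. Sign changes between values that did not pass are therefore among those kept, and F tests have no sign. The reversal was Crot at ZT8 with its kept probes averaged, at 0.56, where the 2 probes oppose each other, and Echs1 at ZT8 was 0.024 within a wash batch. With a fit of the compared groups alone, 2 members were lower at ZT8, where 6288 of 22916 genes were called, 2900 of them higher. In such fits 1 member was called from ZT8 to ZT12 and 8 from ZT8 to ZT16 in knockouts. Array weights gave 2 members higher at ZT16, where 5457 of 22916 genes were higher. They also gave 21 members called from ZT8 to ZT12 and 12 from ZT12 to ZT16 in knockouts, and 23 past the F test. Shares of all genes for time comparisons and the F test were not counted with compared groups alone, weights, unfiltered probes or averaged probes. Without a filter on dim probes 2 members were higher at ZT16, where 4102 of 36991 genes were higher. In that fit 2 members were called from ZT8 to ZT12 in controls and 4 passed the F test. Averaged probes gave 2 called from ZT8 to ZT12 in controls, 2 from ZT12 to ZT16 in knockouts, 4 past the F test, and peroxisomal medians of -0.017 at ZT8 and -0.49 at ZT12. Quantile normalisation moved the mitochondrial median at ZT16 to -0.30 and the peroxisomal median at ZT12 to -0.42. The authors' table moved the ZT12 medians to -0.10 (mitochondrial) and -0.28 (ketogenic), and counting Crat, Ech1 and Eci2 as mitochondrial moved the former to -0.26. The cause of these shifts was not tested.

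With each array left out in turn, members higher ranged from 7 to 12 at ZT8, 3 to 4 at ZT12 and 1 to 6 at ZT16, and members lower from 6 to 17, 19 to 21 and 18 to 22. Members called over time ranged from 1 to 6 (ZT8 to ZT12), 1 to 2 (ZT12 to ZT16) and 8 to 12 (ZT8 to ZT16) in controls, and from 6 to 25, 4 to 8 and 13 to 26 in knockouts. Members past the F test ranged from 5 to 25, the highest without ZT8 knockout replicate 3. Medians ranged from -0.14 to 0.04, -0.23 to -0.14 and -0.22 to -0.18 (mitochondrial), -0.39 to -0.08, -0.36 to -0.23 and -0.62 to -0.54 (peroxisomal), and -0.17 to -0.02, -0.43 to -0.38 and -0.32 to -0.24 (ketogenic) in time order.

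The labels give both genotypes the same replicate numbers, but same-numbered arrays did not deviate together (correlations of -0.16 to 0.15, and 5 of 18 knockout arrays correlated best with the control of their own number), so the numbers were not taken as pairs. With the replicate block, 2 members were called from ZT8 to ZT12 in controls, against 4 without it, and over all genes 8150, 9461 and 9017 were called at the 3 times, against 8128, 9691 and 9167. The knockout ratios were measured in whole liver at 3 times, and 6 arrays per group limit what can pass.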
